A study of Mus musculus with 4 samples.

Results

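Mouse embryos at the 2-cell stage that had been cultured without degrader were described here from 2 of the 4 RNA sequencing libraries of the study, those labelled Vehicle, which form 1 group with 2 replicates. They are called pool 1 and pool 2 after their replicate numbers, and both were chosen by their treatment label alone. Each library was made from a pool of 3 embryos. The embryos were of the genotype Nelfb dTAG/dTAG on an Outbred/ICR background. They came from zygotes collected after natural mating of homozygous parents and were grown for 30 h in KSOM, an embryo culture medium, with 0.01% DMSO, the solvent of the degrader. Both copies of Nelfb, which encodes a subunit of the negative elongation factor that pauses RNA polymerase II, thus carried a degron tag, so these embryos are vehicle controls and not untagged wild type. The labels do not say whether the pools came from different parents or days, so the spread between them may be technical.

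Early mouse development starts from messenger RNA and mitochondria that the egg has stored. Transcription from the embryo's own genome becomes strong at the 2-cell stage, when a set of genes is switched on briefly, while much of the stored maternal message is being degraded. Making ribosomes and their factors is among the first tasks of the newly active genome. The transcriptome was therefore divided into maternal, 2-cell, mitochondrial and translation genes, each made up of shorter lists by role.

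Polyadenylated RNA was turned into libraries by the SMART-seq v4 method, which amplifies full-length cDNA and does not keep the strand, so overlapping and antisense genes cannot be told apart. Pool 1 held 18923479 reads in genes and pool 2 held 16522506. The table lists 18714 genes, each with at least 15 reads over the 4 libraries of the study, so genes with fewer reads are not counted below. Values are scaled reads, that is reads divided by the authors' size factor, and 1 read was worth 1.20 scaled reads in pool 1 and 1.62 in pool 2. A share is the percentage of all reads in genes of the same library and does not depend on that factor. At this depth the 95% Wilson interval of a class's share was at most 0.0175 percentage points to either side, which covers counting error only, and a gene without a read may have up to 3.60 scaled reads in pool 1 and 4.87 in pool 2.

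The 5 genes taken here as markers were abundant in both pools, though not all of them are particular to the 2-cell stage. Btg4, the adaptor that brings the deadenylase complex to maternal messages, had 157204 and 245622 scaled reads in pool 1 and pool 2 and ranked 10 among all genes by its mean; it lies on chromosome 9, 51060901 to 51119875, in build GRCm38. Tcl1b1, of the Tcl1 cluster of coactivators of the kinase Akt, had 107517 and 135455 scaled reads and ranked 20 (chromosome 12, 105159690 to 105166625). Wee2, an egg kinase that holds the mitotic kinase Cdk1 inactive, had 35060.4 and 44916 scaled reads and ranked 69 (chromosome 6, 40439088 to 40466813). These 3 stand for the store laid down in the egg. Gm8300, a predicted gene related to the initiation factor Eif1a and typical of the 2-cell stage, had 30417 and 33879 scaled reads and ranked 90 (chromosome 12, 87514316 to 87518266). The mitochondrial gene mt-Nd1, a subunit of respiratory complex I, had 399594 and 645441 scaled reads and ranked 2. Every marker lay among the 100 genes with the most reads; these markers were chosen with earlier results of these data known, so their ranks are a description only. The tagged gene itself was low: Nelfb had 183 and 69.8 scaled reads and ranked 8625.

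A short set of genes held much of the message. The gene with the most reads was mt-Cytb, cytochrome b of respiratory complex III, with 2.69% and 3.79% of all reads in pool 1 and pool 2. The 10 most abundant genes of a pool held 12.6% and 16.5% of its reads, the 100 most abundant held 33.9% and 40.5%, and the 1000 most abundant held 68.2% and 72.6%. It took 334 and 213 genes to reach 50% of the reads and 3514 and 3076 genes to reach 90%. On each of these measures pool 2 was the more concentrated. Counted per kilobase of exon, which sets genes of different length on 1 scale, the 10 highest genes held 22.8% and 28.6% of the total.

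Of the 30 genes with the most reads by their mean, 13 were in the maternal lists, 7 were mitochondrial, 1 was a 2-cell gene, 1 was a translation gene and 8 were in no list. The 30 were nearly the same in either pool, with 28 genes among the 30 highest of both. Of the 100 highest by their mean, 22 were maternal, 8 mitochondrial, 8 2-cell and 7 translation genes, and 85 were among the 100 highest of both pools. After mt-Cytb and mt-Nd1 came Tcl1, with 1.72% and 2.24% of reads and 391203 and 601609.8 scaled reads. Omt2b and Omt2a are neighbouring genes expressed in maturing oocytes. Omt2b held 0.979% and 1.36% of reads and Omt2a 0.642% and 0.830%. Oog3, an oogenesin of the Prame family, held 1.06% and 1.02%. Spin1, a reader of methylated histones that is abundant in eggs, held 0.897% and 1.01%, and Rfpl4, a RING finger protein of the oocyte, held 0.503% and 0.758%. Apart from Oog3, each of these shares was higher in pool 2.

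The 8 leading genes outside the lists covered general cell functions. Mphosph6, which works with the RNA exosome, was the highest of them with 180923 and 353425 scaled reads and rank 6. Cks2, a small partner of the cyclin-dependent kinases, had 74119 and 136356 scaled reads. In both genes the value of pool 2 was close to double that of pool 1, with a log2 ratio of pool 1 over pool 2 of -0.97 for Mphosph6 and -0.88 for Cks2. Mdm4, a brake on p53, had 134321 and 191012 scaled reads, and H3f3b, which encodes a replacement form of histone H3, had 147251 and 156236. Tiparp, which attaches ADP-ribose to proteins, had 82119 and 132247 and Kbtbd8, a substrate adaptor of a ubiquitin ligase, had 59276 and 88172. Ubb, a polyubiquitin gene, had 87044 and 95847 scaled reads, and Ube2d3, a ubiquitin-conjugating enzyme, had 76600.4 and 111736. H3f3b and Ubb differed least between the pools among these 8 genes.

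**Figure D1:**
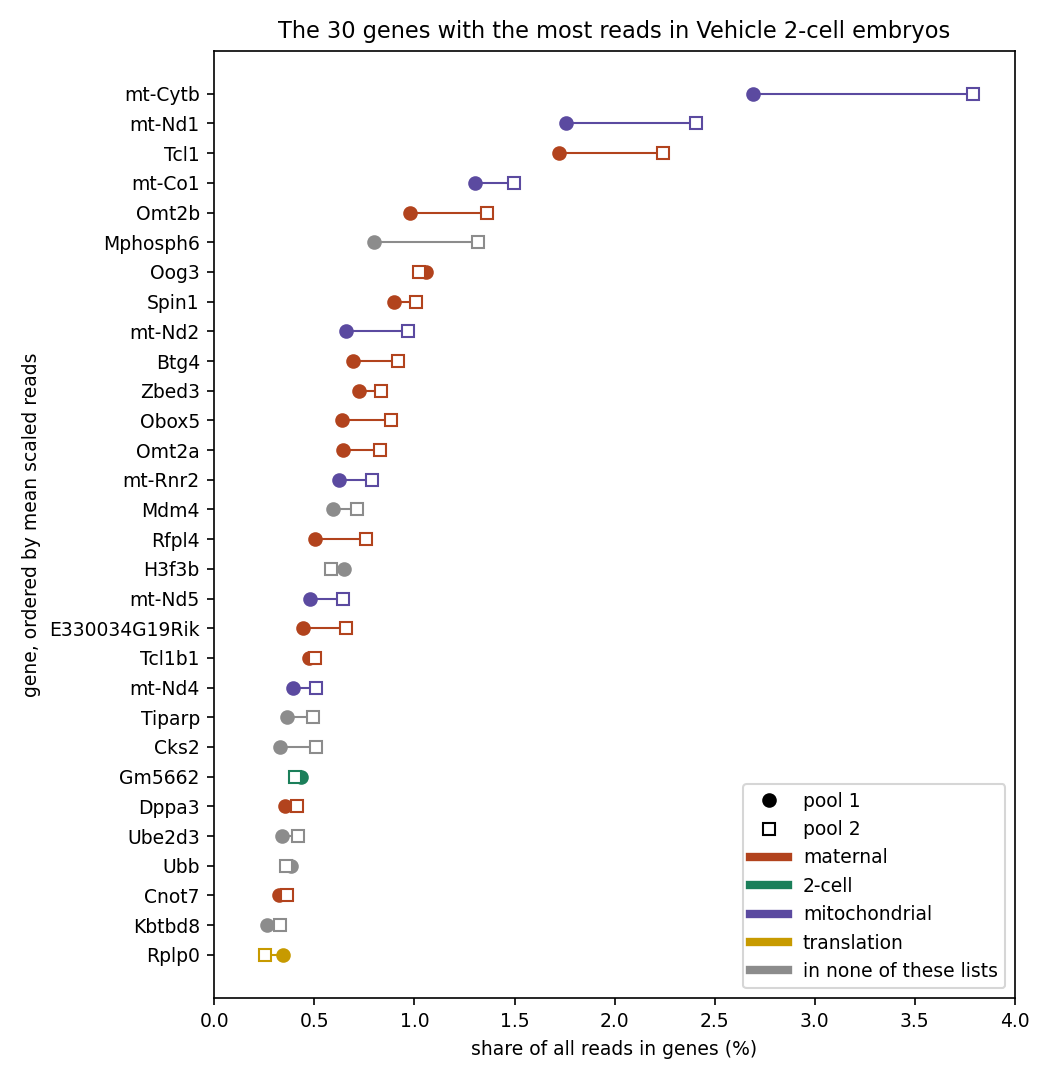
Share of all reads in genes (horizontal axis, percent) for the 30 genes with the most reads by the mean of the pools, from the highest at the top. Filled circles are pool 1 and open squares pool 2, coloured by gene class; mt-Cytb leads with 2.69% and 3.79%, and the mitochondrial genes lie to the right in pool 2.

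Per kilobase the order changed mainly among long transcripts. All 20 genes with the highest level per kilobase were among the 30 with the most reads, and 7 of the 20 were mitochondrial and 11 maternal. Levels per length are given as reads per kilobase of merged exons, scaled so that all genes sum to 1000000 in a library (TPM). On that scale mt-Cytb had 58499 and 77598, mt-Nd1 had 45683 and 58892 and Tcl1 had 23198 and 28473 in pool 1 and pool 2. Cks2, a short gene, stood seventh per kilobase with 11719 and 17206, and Dppa3, which guards maternal DNA methylation in the zygote, had 9875 and 10780.3. Ube2d3 stood 311th with 342 and 398, since its merged exons span 24499 bases while the median of its basic transcripts is 2499 bases, so its level per kilobase depends on the transcript in use.

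The 4 classes together held 26.4% and 31.1% of reads. Maternal genes held 12.4% and 15.5% in pool 1 and pool 2, a mean of 14.0% ± 2.19 (SD, n = 2 pools). Mitochondrial genes held 8.12% and 10.9%, a mean of 9.51% ± 1.98. Translation genes held 3.54% and 2.67%, a mean of 3.11% ± 0.610, and 2-cell genes held 2.35% and 1.97%, a mean of 2.16% ± 0.269 (SD, n = 2 pools each). The order of the classes was the same in both pools. The step from maternal to mitochondrial genes and the step from mitochondrial to translation genes were larger than the SD of either class. The order depended on the most abundant genes. Without the 10 most abundant, mitochondrial genes averaged 2.32%, below translation genes with 3.62% and 2-cell genes with 2.53%. The lists hold the genes named for them, not all genes of a kind, so each share is that of the lists. Sequence shared with other genes, described below, differed among the classes, and the handling of reads with several matches is not given. The effect of such reads on the class shares and on their order was not tested.

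Counted per kilobase, maternal genes held 16.9% and 19.99% of the total in pool 1 and pool 2 and mitochondrial genes held 17.1% and 21.9%, so that the mitochondrial class was then the higher in both pools. This order turned again with the median length of a gene's basic transcripts in place of its merged exons, where maternal genes averaged 17.9% and mitochondrial genes 13.2%. Translation genes held 3.76% and 2.87% and 2-cell genes 3.32% and 2.59% per kilobase of merged exons. In a bulk pool, fewer cells with a message and less of it per cell cannot be told apart. Between pools, the maternal and mitochondrial shares were higher in pool 2 and the translation and 2-cell shares were higher in pool 1. With all scaled reads summed, the 2-cell class had a log2 ratio of pool 1 over pool 2 of 0.02, against -0.24 for all genes.

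**Figure D2:**
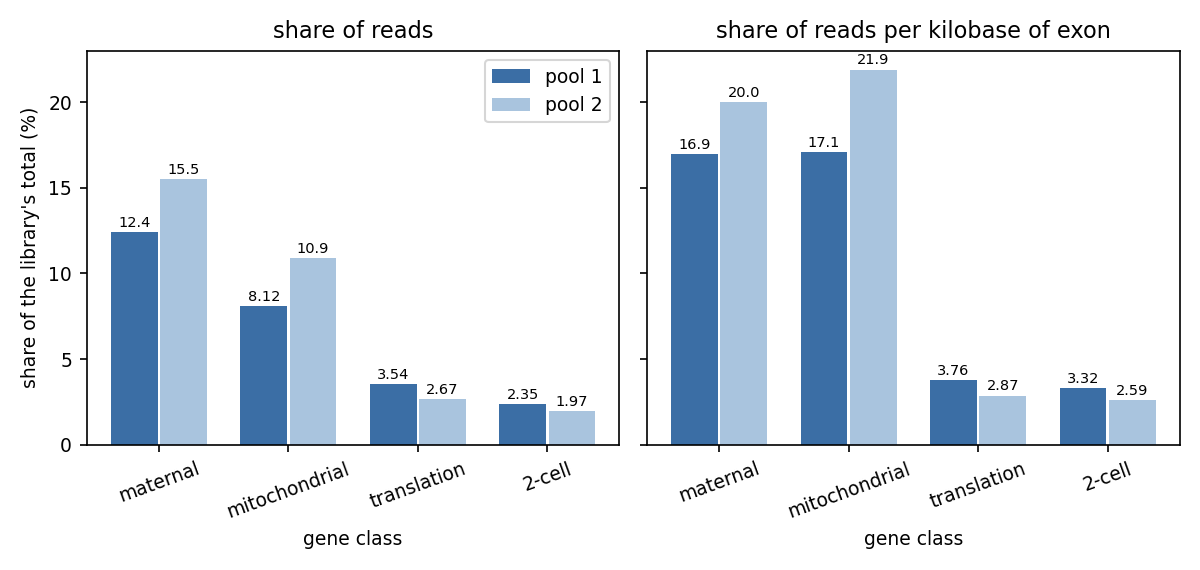
Share of the library's total (vertical axis, percent) held by the 4 gene classes in pool 1 (dark bars) and pool 2 (light bars), by reads on the left and by reads per kilobase of merged exon on the right. Maternal and mitochondrial genes are higher in pool 2, translation and 2-cell genes in pool 1.

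Over the 15589 genes with a mean of 10 scaled reads or more, 48.2% had more scaled reads in pool 1 and 51.8% in pool 2. This is the background for the counts by direction below and is not matched for abundance.

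The maternal class was spread over 12 lists by role, and 10 of the 12 held a larger share in pool 2. The lists matched 108 genes of the table, of which 108 had a read in pool 1 and 107 in pool 2. Of them 22 were among the 100 most abundant genes, and the values ran from 4.45 to 496407 mean scaled reads. The median rank of a maternal gene was 1504 of 18714. The class thus joined the most abundant nuclear messages with many of modest level.

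The largest maternal lists were the oogenesin and Omt2 genes with 3.31% and 4.10% of reads and the Tcl1 cluster with 2.88% and 3.52%. All 6 genes of the Tcl1 cluster were among the 200 most abundant. Tcl1 itself held 59.7% and 63.7% of the reads of the cluster. Tcl1b3 had 57249 and 68373 scaled reads, Tcl1b2 55214 and 64653, Tcl1b4 30907 and 53503 and Tcl1b5 12682 and 20669 in pool 1 and pool 2. Each of the 6 was higher in pool 2. Words of 50 bases that also occur in another annotated transcript made up 12.4% of the words of Tcl1b1 and 34.1% of those of Tcl1b3, so the split among the Tcl1b copies is uncertain while that of Tcl1, with 0%, is not touched by this.

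The list of oogenesin and Omt2 genes was not limited to those families. In it, the predicted gene E330034G19Rik had 100156 and 175827 scaled reads, Oog1 17926 and 23432 and D6Ertd527e 8096 and 14361. Oog1 shared 89.0% of its 50-base words with other genes, and its value may be that of a group of copies. Secreted factors that the oocyte sends to its follicle were also high. Oosp1, an oocyte-secreted protein, had 52349.8 and 91305 scaled reads, Oosp3 15595 and 32757 and Bmp15, a growth factor of the oocyte, 22395 and 39372, each higher in pool 2. Its partner growth factor Gdf9 was even between the pools in scaled reads, with 4122 and 4164. Oosp2 had 292 and 471 scaled reads, and the growth factor Fgf8 had 28.8 and 90.9.

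The subcortical maternal complex, a protein assembly under the egg membrane that the embryo needs to divide, was uneven in message. Zbed3, a later member of the complex, held 87.8% and 82.4% of the reads of the list, with 164482 and 223952 scaled reads. Nlrp4f followed with 14256 and 37634 and Ooep with 3485 and 5410.3. Of the core members, Nlrp5 had 1428 and 1979 scaled reads, Tle6 838 and 569.8 and Khdc3 303 and 174. In TPM, Zbed3 had 8066 and 8765 and Nlrp5 32.2 and 35.6. Padi6, an enzyme of the egg lattices, had 1959 and 1627 and Nlrp2 612 and 555. The other Nlrp genes of the oocyte were all higher in pool 2, led by Nlrp9c with 25466 and 52290.1, Nlrp9a with 10625 and 19315 and Nlrp14 with 8334 and 12136 scaled reads. Nlrp4e had 7750.1 and 9714, Nlrp4a 3239 and 6605, Nlrp4b 1370.1 and 3053, Nlrp9b 1625 and 2982 and Nlrp4c 162 and 279.

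Genes of the egg surface were modest at this stage. Of the zona pellucida proteins, which build the egg coat, Zp1 had 323 and 511 scaled reads, Zp2 1578 and 2467 and Zp3 1589 and 844 in pool 1 and pool 2. Cd9, needed for sperm fusion, had 2029 and 838, the sperm receptor gene Izumo1r had 309 and 774, and Astl, which cleaves the zona after fertilization, had 70.8 and 24.3. None of the 6 reached the 1000 most abundant genes. The whole list held 0.0260% and 0.0204% of reads, and 3 of its genes were higher in each pool.

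Factors that set the life of stored messages came next. The decay list held 1.15% and 1.39% of reads, of which Btg4 made up 60.4% and 65.9%. Of the deadenylases, Cnot7 had 73541 and 96821 scaled reads and Cnot6l 11416 and 15152. Ythdf2, a reader of methylated message, had 9195 and 5519 and the decapping enzyme Dcp2 5640.3 and 7454. Zcchc11, which adds uridine to message tails, had 1335 and 99.0 scaled reads, the widest gap between pools in the list, whereas its relative Zcchc6 had 199 and 364. Dcp1a had 1069.9 and 1174, Pabpn1l 318 and 325 and Zfp36l2 407 and 292. The storage and masking list held 0.111% and 0.0852% of reads and was led by Dazl, an RNA-binding protein of germ cells, with 19015 and 17098 scaled reads. Other masking factors were low, with Cpeb1 at 385 and 560.0, Ybx2 at 521 and 987 and Zar1 at 219.8 and 189.9 scaled reads. Eif4enif1, which binds the cap-binding protein, had 3313 and 2613, Eif4e1b, an oocyte form of that protein, 545 and 602 and Zar1l 711 and 379.8. Pabpc1l, an oocyte poly(A)-binding protein, had 265 and 141 and Lsm14b 221 and 289.

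Of the oocyte transcription factors, only members of the Obox homeobox family were among the 500 most abundant genes. Obox5 had 145126 and 236754 scaled reads, Obox1 16540.1 and 34619 and Obox2 4919.8 and 11066. Obox1 shared 57.4% of its 50-base words with other genes and Obox2 65.2%. Regulators that act earlier in the growing oocyte had few reads: Nobox had 294 and 451, Figla 84.1 and 26.0, Lhx8 496 and 519, Sohlh1 66.0 and 0 and Sohlh2 191 and 64.9 scaled reads in pool 1 and pool 2. Of the factors that stand in for general transcription factors in the oocyte, Taf4b had 2037 and 2019 and Tbpl2 199 and 607.

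Maternal regulators of chromatin were led by Dppa3 with 80510.2 and 110125 scaled reads, which was 82.4% and 83.6% of the list. H1foo, the linker histone of the oocyte, had 5878 and 7423, Tet3, which oxidizes methylated cytosine in the zygote, had 2645 and 3566, and Npm2, a histone chaperone of the egg, had 1512 and 2823. Of the pair that keeps methylation at imprinted regions, Zfp57 had 2272 and 3755 and Trim28 1447 and 1058. Dnmt1, the maintenance methyltransferase, had 1093 and 477 and its partner Uhrf1 294 and 583. Kdm1b, a histone demethylase needed for maternal imprints, had 1437 and 1518, and the chromatin remodeller Smarca4 had 616 and 446. Dnmt1 and Trim28 were higher in pool 1, and H1foo, Tet3, Zfp57, Npm2 and Uhrf1 were higher in pool 2. Among the other oocyte-enriched genes, Bcl2l10, a relative of the survival factor Bcl2, had 42856 and 64604 scaled reads and Accsl 35861 and 48398. Pla2g4c, a phospholipase, had 17549 and 33009 and Uchl1, a deubiquitinase, 18404 and 18942. Mos, the kinase that arrests the egg in meiosis, had 36.02 and 74.7 scaled reads, while Wee2 made up most of the reads of the same list. Its other members were Fbxo43, an inhibitor of the anaphase-promoting complex, with 811 and 1463, and the meiotic kinase gene Aurkc with 737 and 443.

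Genes switched on briefly at the 2-cell stage were present in all 7 lists tried. Of 51 names, 44 were in the table, and each of the 44 had a read in both pools; the others, such as Zscan4a, BC061212 and Tdpoz5, were not listed. Of the 44, 8 were among the 100 most abundant genes and 23 among the 1000 most abundant, with a median rank of 853. All 7 lists held a larger share of reads in pool 1, but in summed scaled reads the Eif1a-like and Usp17l lists were higher in pool 2. The largest list was that of Eif1a-like predicted genes with 0.825% and 0.754% of reads. Gm5662 had 98144 and 108086 scaled reads, Gm2016 43393 and 40044, Gm8300 30417 and 33879 and Gm4027 13572 and 16064 in pool 1 and pool 2. The log2 ratios of pool 1 over pool 2 of these 4 genes ran from -0.24 to 0.12. The remaining 2 genes of the list had fewer reads and lay further apart, with BB287469 at 1293 and 2704 scaled reads and Gm2022 at 755 and 1461.

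In the Zscan4 family, zinc finger genes that mark 2-cell embryos and are linked to telomere upkeep, 1 copy held most of the reads. Zscan4d had 45894 and 44388 scaled reads, or 82.0% and 86.9% of the family. Zscan4c had 7198 and 4701, Zscan4b 1328 and 1159, Zscan4f 1328 and 455 and Zscan4e 216 and 357. How reads that match several copies were counted is not given in the sources used here, and the copies are very alike. Zscan4d shared 49.6% of its 50-base words with other genes, and the other copies 85.5% to 90.1%. Whether the split of reads among the copies goes with this was not tested. The coding sequences of Zscan4d and Zscan4c differ at 35 of 1521 aligned bases, and those of Gm5662 and Gm2016 at 4 of 435. To show how few bases tell such genes apart, 80 coding bases from the GENCODE M21 transcripts (build GRCm38) around the first difference of each pair are given 5′ to 3′, with the differing bases in capitals. Zscan4d lies at chr7:11165249-11165328, minus strand, and Zscan4c at chr7:11006576-11006655, plus strand. Gm5662 lies at chr12:88271887-88271966, minus strand, and Gm2016 at chr12:87876607-87876686, plus strand.
Zscan4d: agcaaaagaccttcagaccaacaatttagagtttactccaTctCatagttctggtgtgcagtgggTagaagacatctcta
Zscan4c: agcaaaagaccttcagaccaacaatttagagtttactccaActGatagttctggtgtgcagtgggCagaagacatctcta
Gm5662: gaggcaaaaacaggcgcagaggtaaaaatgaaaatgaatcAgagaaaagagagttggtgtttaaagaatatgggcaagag
Gm2016: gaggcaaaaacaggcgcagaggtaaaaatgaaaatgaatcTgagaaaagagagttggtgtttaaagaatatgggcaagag
The Zscan4 stretch holds 3 differences and the other stretch 1, and the rest of each stretch is the same in both genes. Over the 43 of the 44 genes with annotated transcripts, the median share of 50-base words found in another gene was 44.7%, against 1.43% for the maternal class. Single copies of the 2-cell families are therefore uncertain. What this sharing does to the share of reads of the 2-cell class, and to its place among the 4 classes, was not tested.

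The other 2-cell families held fewer reads. The Tcstv family held 0.2496% and 0.176% of reads, with Tcstv1 at 19864 and 13356 and Tcstv3 at 7558 and 6339 scaled reads. AF067061 of the same list had 18469 and 15637 and AF067063 10839 and 11816. Among the Usp17l deubiquitinases, Usp17lb had 33539 and 33824, Usp17ld 3482 and 3602, Usp17la 3079 and 3708, Usp17lc 1172 and 1265 and Usp17le 926 and 1859. In the Tdpoz family, named for its TRAF and POZ domains, Tdpoz1 had 5793 and 4849 scaled reads, Tdpoz3 3863 and 3800.1, Tdpoz4 3828 and 3222 and Tdpoz2 245 and 136. Gm4340 had 10767 and 9384, with 98.9% of its 50-base words in other genes. The predicted genes listed with it were Gm21761 with 9883 and 7124, Gm21818 with 5793 and 4423, Gm20767 with 3485 and 3055 and Gm21319 with 1340.1 and 1383 scaled reads. Gm2056 had 184 and 479 and Gm21293 137 and 19.5, with few reads and wide gaps between the pools. Genes outside these families were held in a list of their own. Zfp352, a zinc finger gene that arose from a copied transcript, had 41930.3 and 41331 scaled reads, Obox3 had 31608 and 26311 and Gm13078 had 33556 and 37380.5. Obox6 had 9064 and 4613, Pramef25 7014 and 6577 and Ubtfl1, a relative of a ribosomal RNA transcription factor, 5578 and 7159. Zscan4d, Zfp352 and Usp17lb were even between the pools in scaled reads, with log2 ratios of pool 1 over pool 2 of 0.05, 0.02 and -0.01. On that scale reads summed over all genes had -0.24, so by share of reads these genes lay towards pool 1.

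The mitochondrial class comprised 13 protein genes and 2 ribosomal RNAs of the mitochondrial genome, which the egg supplies. All 13 protein genes and their nuclear copies are named, a choice made after their values were seen. The protein genes held 7.35% and 9.91% of reads and the ribosomal RNAs 0.766% and 0.997%. All 15 genes had more scaled reads in pool 2, with log2 ratios of pool 1 over pool 2 from -1.23 for mt-Nd3 to -0.44 for mt-Co1. In TPM, mt-Cytb, mt-Nd1, mt-Co1, a core subunit of cytochrome oxidase, and mt-Nd2, of complex I, were the highest, the last with 15787 and 21808, and mt-Co1 had 20963 and 22675. Also of complex I, mt-Nd4 had 7073 and 8611 TPM and mt-Nd5 6498 and 8236. mt-Nd6, the protein gene on the other strand, had 1580.4 and 2351 TPM. The large ribosomal RNA mt-Rnr2 had 9757 and 11647 and the small one, mt-Rnr1, 3784 and 5159 TPM.

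Of the 13 protein genes, 6 were far lower than the rest. The gene mt-Co2, of cytochrome oxidase, had 198 and 283 TPM in pool 1 and pool 2, and mt-Co3 had 390.1 and 538. Of the ATP synthase genes, mt-Atp6 had 561 and 794 and mt-Atp8 153 and 250.1. Of complex I, mt-Nd3 had 46.1 and 86.8 and mt-Nd4l 31.0 and 44.9. These genes follow one another in the mitochondrial genome, from base 7013 at the start of mt-Co2 to base 10173 at the end of mt-Nd4l. In 5 of the 6 nearly every 50-base word also occurs in a nuclear pseudogene on chromosome 1, from 98.0% in mt-Nd3 to 100% in mt-Co2, while mt-Atp8 shares 0% with annotated transcripts. In mt-Co1 and mt-Nd4, 51.1% and 62.2% of words were shared, and in the other 5 protein genes at most 8.19%.

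The nuclear copies form 1 block at chromosome 1, 24611535 to 24616197 in GRCm38, with 7 annotated pseudogenes on the minus strand. None of the 7 covers the stretch between Gm10925, which ends at 24614651, and Gm28661, which starts at 24614885. That stretch was not compared with mt-Atp8, so the 0% of mt-Atp8 holds for annotated transcripts only. Gm28661, Gm10925, Gm28437 and Gm10222 match mt-Co2, mt-Atp6, mt-Co3 and mt-Nd4l without a difference over 681, 678, 783 and 294 bases. Gm28438 differs from mt-Nd3 at 1 of 345 bases. The first 80 bases of that pair are given 5′ to 3′ from GENCODE M21 (GRCm38), with the differing base in capitals, at chrM:9459-9538, plus strand, for mt-Nd3 and at chr1:24613040-24613119, minus strand, for Gm28438.
mt-Nd3: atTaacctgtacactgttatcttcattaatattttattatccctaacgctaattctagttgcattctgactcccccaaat
Gm28438: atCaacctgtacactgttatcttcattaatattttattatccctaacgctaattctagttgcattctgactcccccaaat
Gm28437 had 2321 and 4383 scaled reads in pool 1 and pool 2, beside 2796 and 4829 for mt-Co3. Gm10925 had 2307 and 4053, beside 3489.6 and 6191 for mt-Atp6. Gm28438 had 1332 and 2553, beside 147 and 346 for mt-Nd3. The 7 pseudogenes together held 0.0356% and 0.0566% of reads, and the 5 matching mitochondrial genes 0.0341% and 0.0512%. Whether reads with several matches were set aside was not tested, and the low values of these genes cannot be taken as their level.

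**Figure D3:**
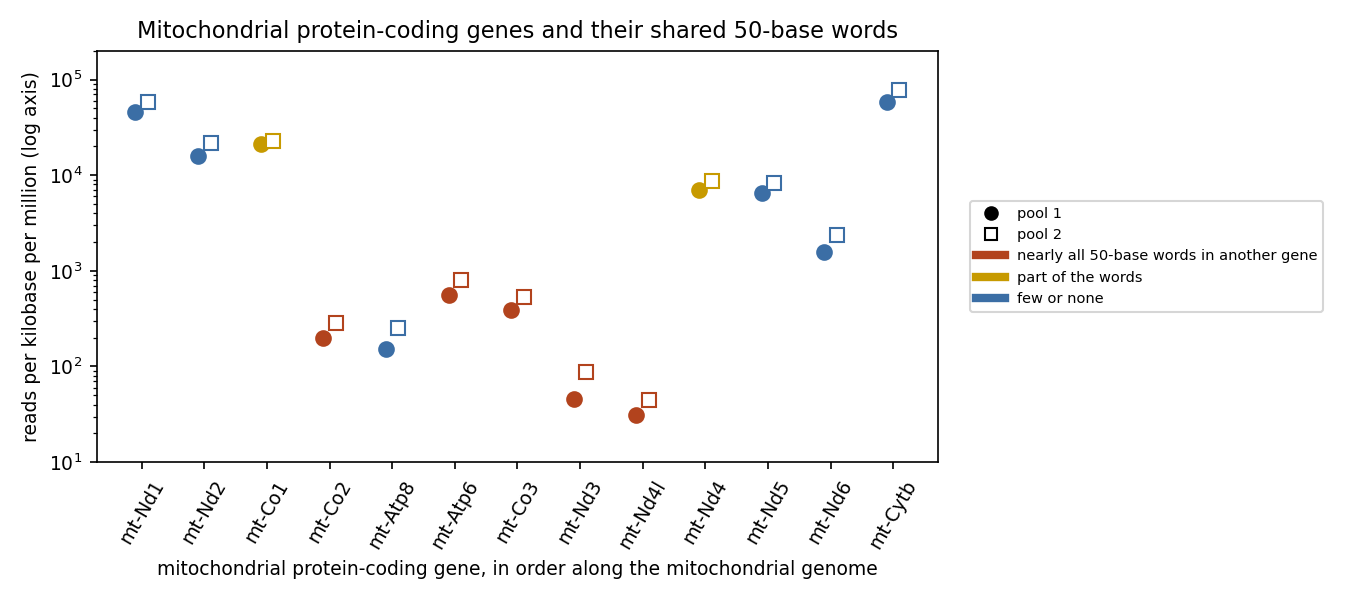
TPM (reads per kilobase scaled to equal library totals; vertical log axis) of the 13 mitochondrial protein genes in order along the mitochondrial genome, filled circles for pool 1 and open squares for pool 2. Red genes share nearly all 50-base words with another annotated gene, yellow part and blue few or none; the red genes and mt-Atp8 lie below 1000, and the others above it.

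Nuclear genes of oxidative phosphorylation, whose proteins join the mitochondrial ones, held 0.332% and 0.272% of reads over 61 genes. Atp5b, a subunit of ATP synthase, had 18263 and 10374 scaled reads and Cox8a, of cytochrome oxidase, 8634 and 12696. Ndufa4 had 3257 and 3458, Atp5g1 3511 and 2971 and Cox5a 2881 and 3509, with Atp5g3 at 3147 and 2323. The highest of them, Atp5b, ranked 234, and the median of the list was rank 5429. Of the 61 genes, 26 were higher in pool 1 and 35 in pool 2.

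Translation genes formed a broad class, with 202 genes in the table. The 79 ribosomal proteins held 1.31% and 1.00% of reads, and 11 of them were among the 1000 most abundant genes. Rplp0, of the ribosomal stalk, had the most reads of them with 77584 and 67296 scaled reads, or 26.1% and 25.1% of all ribosomal protein reads. Rpl41 followed with 24034 and 24664, then Rps3a1 with 12474 and 9835 and Rps27a, which is fused to ubiquitin, with 6882 and 8049.8. Rpl4 had 6791 and 6189 scaled reads, Rpl19 7957 and 4961, Rplp2 4992 and 5823, Rps9 7343 and 6024 and Rps6 5436 and 3956. Rpl32 had 4875 and 5014, Rps26 3468 and 4893 and Rps20 4089 and 3269. Many of these genes share words with other annotated genes, a median of 24.4% in the large subunit list. Rps27l, a variant protein, had 12383 and 24969 scaled reads and was higher in pool 2, so that its list was the translation list with the larger share there. In TPM it had 1660.3 and 2672, above Rps3a1 with 1397 and 879. The other variants had fewer reads, with Rpl10l at 1203 and 1075 scaled reads, Rpl39l at 923 and 847, Rpl22l1 at 533 and 463, Rpl3l at 177 and 138 and Rps27rt at 1.20 and 0.

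Factors that start translation held 1.08% and 0.888% of reads, close to the ribosomal proteins. Eif1, which helps select the start codon, had 48633 and 64236 scaled reads. The scaffold protein Eif4g2 had 35367 and 32071, the cap-binding protein Eif4e 34545 and 31764, and Eif5, which makes the initiation complex hydrolyse GTP, 31567 and 29089. The helicase Eif4a1 had 8203 and 6905 scaled reads and Eif2b1, of a guanine nucleotide exchange factor, 6318 and 7574. All 4 leading initiation factors were among the 100 most abundant genes. Eif5a, which eases peptide bond formation, led the elongation list with 34602 and 27988 scaled reads, while Eef1a1, which brings tRNA to the ribosome, had 5319.6 and 6303, and Eef2, which moves the ribosome along, had 1012 and 1571. The release factor Etf1 had 6239 and 4511 and its partner Gspt1 1899.7 and 1195, and Eef1b2 had 1804 and 1542. The tRNA synthetases had fewer reads, led by Farsb with 2917 and 4331 and Iars with 3480.0 and 3331, and held 0.0969% and 0.0734% of reads. Dars had 2449.7 and 2225 scaled reads, Rars 2482 and 1639, Kars 1912 and 1851 and Qars 2007 and 680.1, each higher in pool 1.

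Genes for building ribosomes held 0.746% and 0.435% of reads and showed the widest gap between pools of any translation list that was higher in pool 1. Of 42 genes, 35 had more scaled reads in pool 1, with a median log2 ratio of pool 1 over pool 2 of 0.69, against -0.06 over all genes with a mean of at least 10. Npm1, the nucleolar chaperone nucleophosmin, had 34764 and 26487 scaled reads, and Ncl, nucleolin, had 23349 and 14694. Of pre-ribosomal particles, Brix1 had 18195 and 13582, Nop56 12982 and 7558 and Ebna1bp2 7078 and 5146. Dkc1, the pseudouridine synthase, went the other way with 8309.7 and 10085. Of the ribosomal proteins, 44 of 79 were higher in pool 1, with a median log2 ratio of 0.07 in scaled reads. Their summed share of reads, which does not use the size factor, had a log2 ratio of 0.39 towards pool 1.

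Among general cell functions, chaperones held 0.451% and 0.322% of reads, led by Hsp90aa1 with 17820.2 and 16531 and Hspa8 with 12346 and 13377 scaled reads. Hsp90ab1 had 10402 and 7108, the chaperone of the endoplasmic reticulum Hspa5 7515 and 6235, and the chaperonin subunits Cct3 9757 and 6267 and Cct8 6932 and 5151. Proteasome subunits held 0.241% and 0.161%, led by Psmd11 with 6404 and 3230.3 scaled reads, and 24 of 31 were higher in pool 1, against 48.2% of all genes. Psmd7 had 4641 and 3266, Psmb6 2852 and 3152, Psma3 3671 and 2102, Psmd6 2703 and 3066 and Psma2 2035 and 2885, so the leading subunits were split between the pools. Most reads of the glycolysis list were from 1 gene. Ldhb, a lactate dehydrogenase subunit, had 13061 and 18288 scaled reads, 57.7% and 74.3% of the list, while Gapdh had 1499 and 1234 and Ldha 1012 and 385. Pkm had 1424 and 990.2, Pgam1 1577 and 495 and Tpi1 865 and 932. Among mitotic regulators, Ccnb1, cyclin B1, had 46621 and 47284 scaled reads, Mad2l1, of the spindle checkpoint, 19086 and 29978, the cyclin gene Ccna2 18409.8 and 11553 and the kinase gene Cdk1 15320.1 and 10349.9. The E-type cyclins Ccne2 and Ccne1 were next, the first with 11882 and 7774 and the second with 5779.6 and 5425. Among RNA polymerase II subunits, Polr2c had 20368 and 23885 scaled reads and the largest subunit, Polr2a, named after its value was seen, had 163 and 167. Polr2d had 10368 and 7774, Polr2f 5514 and 7053, Polr2j 4992 and 7499, Polr2g 6493 and 5767 and Polr2b 4998 and 2948. Of the other pausing factor subunits, Nelfa had 1225 and 1182, Nelfe 477 and 122 and Nelfcd 46.8 and 0. Actb, often used as a standard, had 3027 and 2823 scaled reads. Of other cytoskeletal genes, Cfl1, cofilin, had 13271 and 13673, the tubulin gene Tubb4b 5259.6 and 3610.1 and Tubb2a 2548 and 2313, and the thymosin gene Tmsb10 3849 and 3389 and Tmsb4x 1143 and 2831.

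Factors of later lineages were scarce. Pluripotency factors held 0.0414% and 0.0243% of reads. Klf17 was the highest with 4176 and 3451 scaled reads, followed by Klf5 with 1209 and 648, Nr5a2 with 994 and 269, Klf4 with 585 and 542, Sall4 with 580.0 and 471 and Utf1 with 632 and 339. Pou5f1 had 369.9 and 550.3, which was outside the 6 highest; it was picked with its value known, as were Sox2 with 20.4 and 84.4 and Nanog with 9.61 and 0. Trophectoderm factors were led by Tfap2c with 746 and 409, Krt18 with 669 and 188 and Eomes with 497 and 30.8, and Cdx2 and Elf5 were not in the table. Gata3 had 259 and 221, Tead4 109 and 118, Krt8 0 and 148 and Hand1 16.8 and 34.1. Of the primitive endoderm, Gata4 had 281 and 141 and Gata6 136 and 24.3 scaled reads, and Sox17 had 7.205 and 39.0 and Pdgfra 0 and 9.74. Eomes, Gata6 and Nr5a2 were higher in pool 1. No gene of the 3 lineage lists ranked among the 1000 most abundant by its mean.

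Markers of cells that could travel with embryos held a small share of reads. Of 36 names, 19 were in the table, 2 of these had no read in either pool, and together they held 0.0138% and 0.00744% of reads. The highest were Hba-a1, a haemoglobin chain, with 1062 and 1041 scaled reads, Tnfaip6, of the cumulus matrix, with 836 and 294, and Amhr2, a granulosa receptor, with 504 and 259.7. Hba-a1 shared 72.3% of its 50-base words with other genes. Of the sperm genes, Prm2 had 24.0 and 29.2 and Tnp1 48.0 and 60.1, and Ovgp1, of the oviduct, had 118 and 0. Izumo1 had 166 and 136, Akap4 87.7 and 0 and Odf1 0 and 8.12, also of sperm. In the cumulus and granulosa list, Cyp19a1 had 66.0 and 0 scaled reads, Ptgs2 54.0 and 0, Ptx3 34.8 and 50.3 and Pgr 0 and 17.9. Ptprc, of white blood cells, had 0 and 26.0. Of genes of differentiated tissues, Myh6 had 94.9 and 50.3, Snap25 19.2 and 22.7 and Apoa1 20.4 and 0, and Sftpc and the blood gene Alas2 had no read. The 17 markers not in the table were Amh, Fshr, Foxl2, Inha, Inhba and Has2 of granulosa and cumulus cells, Prm1, Tnp2 and Smcp of sperm, Foxj1 and Pax8 of the oviduct, Hba-a2, Hbb-bs and Hbb-bt of blood and Alb, Ins2 and Gfap of other tissues. Their part in the results was not tested.

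By annotation, protein-coding genes held 95.1% and 94.7% of reads, long noncoding genes 1.91% and 2.35%, and pseudogenes 1.77% and 1.62%. Long noncoding genes, named after their values were seen, were led by B020004C17Rik with 55769 and 88281 scaled reads, Gm1965 with 50972 and 65718 and Gm839 with 32464 and 53361. The first ranked 31 among all genes. The Y chromosome, also examined after the values were seen, held 0.0171% and 0.00801% of reads, with Eif2s3y at 1565 and 365 and Uty at 652 and 325 scaled reads. Xist, whose RNA silences an X chromosome and which was chosen in the same way, had 18 reads in pool 1 and 1 read in pool 2.

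Pool 1 had a read in 16446 genes and pool 2 in 15929. Both pools had a read in 14714 genes, which was 78.6% of those listed, 1732 were seen in pool 1 alone and 1215 in pool 2 alone. Drawn down to the depth of pool 2, which treats reads as independent, pool 1 would show 16399 genes. With at least 10 reads required, 14407 and 13686 genes remained. What part depth has in this gap was not tested further.

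Agreement of the pools was examined over the 15589 genes whose mean reached 10 scaled reads, on log2 values with 1 added. Across these genes, which do not count as replicates of one another, Pearson's r was 0.739 and Spearman's rho 0.849. The values of pool 1 and pool 2 lay at least 2-fold apart in 6823 genes, or 43.8%. Of all 15589 genes, 23.1% were at least 2-fold higher in pool 1 and 20.6% at least 2-fold lower. With 1 library on each side this compares these libraries only. The median log2 ratio of pool 1 over pool 2 was -0.06 in scaled reads and 0.15 in RPM, that is reads scaled to a library total of 1000000, so directions of single genes near even depend on the scale.

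Agreement rose with abundance. Of 2950 genes with a mean of 10 to 30 scaled reads, 73.9% were 2-fold apart and 40.1% had no read in 1 pool. Between 300 and 1000 scaled reads 28.2% were 2-fold apart. At 10000 or more, where 360 genes held 50.8% and 56.7% of reads, it was 5.56%. The median size of the log2 ratio in this highest group was 0.44, against 0.01 from counting error alone. These genes had a signed median of -0.32 in scaled reads, towards pool 2, and reads summed over all genes had -0.24.

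**Figure D4:**
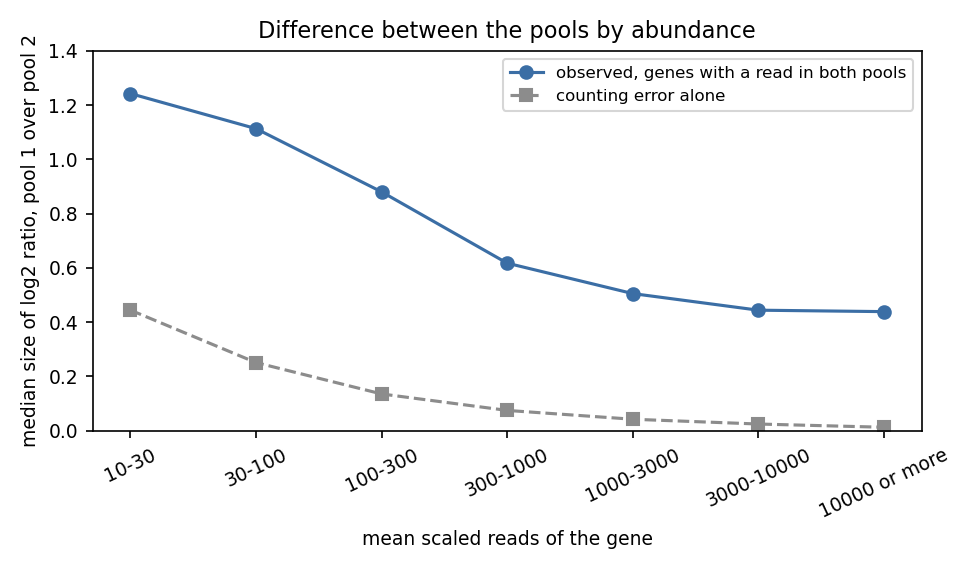
Median size of the log2 ratio of pool 1 over pool 2 (vertical axis) by the mean scaled reads of the gene (horizontal axis), over genes with a read in both pools. The observed line falls from 1.24 to 0.44, and the dashed line of counting error from 0.44 to 0.01.

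The 4 classes, most of whose genes are abundant, had fewer genes 2-fold apart than the 43.8% of all genes, at 16.8% of 107 maternal, 15.9% of 44 2-cell, 13.3% of 15 mitochondrial and 16.4% of 201 translation genes. Among all genes whose mean reached 1000 scaled reads the share was 13.4%. The classes differed more in direction. The median log2 ratio of pool 1 over pool 2 was -0.50 for maternal, 0.00 for 2-cell, -0.79 for mitochondrial and 0.24 for translation genes. It was -0.06 for all genes, -0.16 for those whose mean reached 1000 scaled reads and -0.32 for those that reached 10000. In pool 2, 82 of 107 maternal genes were higher, against 51.8% of all genes. In pool 1, 134 of 201 translation genes were higher, against 48.2% of all genes. With 2 pools, no test of this split was made, and its cause was not tested.

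**Figure D5:**
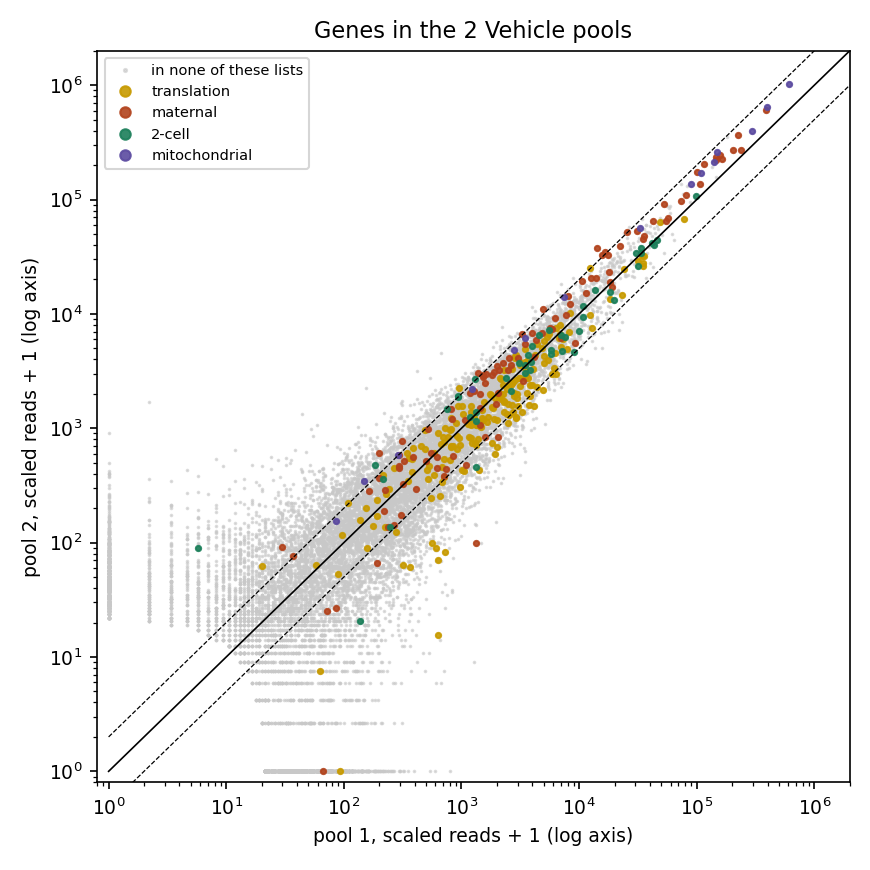
Scaled reads plus 1 in pool 1 (horizontal log axis) and pool 2 (vertical log axis) for the 15589 genes whose mean reached 10; the solid line marks equal values and the dashed lines a 2-fold difference. Coloured points are the 4 classes, with mitochondrial and most maternal genes above the line and most translation genes below it.

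Among the 3418 genes whose mean reached 1000 scaled reads, 458 were 2-fold apart. The gene with the widest gap towards pool 1 was Ercc5, an endonuclease of DNA repair, with 1949 and 151 scaled reads in pool 1 and pool 2. Exoc3l2 followed with 3119 and 391, Pitpnb, a phospholipid carrier, with 3496 and 502 and Bzw2 with 2159 and 328. Zfp143, Kif3c, Tbcb, Pdxk, Zc3hc1 and Ptdss2 completed the 10, with log2 ratios from 2.35 to 2.60. The widest gap towards pool 2 was in Slc27a2, a fatty acid transporter, with 153 and 2234 scaled reads. Slc30a7, a zinc transporter, had 420.3 and 3154, Ifit1bl2 669 and 4576, and Ddit3, a stress transcription factor, 309.8 and 1721. Stk3, Fthl17f, Cit, Snx2, Cers6 and Klhdc1 had log2 ratios from -2.36 to -1.87. None of these 20 genes belonged to the 4 classes.

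Some genes had many reads in 1 pool and no read in the other. Lppr5 had 669 reads in pool 1, Cndp2, a dipeptidase, 496, Vmn2r1 446, Asah1, the acid ceramidase, 331 and Fkbp6 290, all with 0 in pool 2. Cst9 had 560 reads in pool 2, Pramel3 305, Elp3 260, Ccr3 252 and Scrn3 244, all with 0 in pool 1. In each case a count of 0 allows up to 3 reads by counting error. All 10 stood below the 5000 most abundant genes by their mean.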

How the data were processed

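RNA of the 2 Vehicle libraries was described; the 2 treated libraries and the authors' comparison table were not used here. The labels' protocols give SMART-seq v4 libraries from polyadenylated RNA of 3 embryos each. The deposited file holds a signal that the authors computed, reads per gene after division by 1 size factor for each library. The submitters' processing notes name bcl2fastq, Picard, HTSeq and DESeq and the build mm10; the aligner, the annotation release and the handling of reads with several matches are items not given in the sources used here. Columns were matched to samples by their treatment and replicate number. Each value was a whole multiple of 1 step per library within 0.0001 reads, which gave back whole reads (100% of values), and shares and counting intervals rest on those reads. Every gene row had a name.

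Of 18714 gene IDs, 18625 were matched to GENCODE M21 (GRCm38) for symbols, exons and position, and 89 were not. The members and gene lists were chosen with earlier results of these data known, and no test was made, since there is 1 group with n = 2 pools. The text names the 5 markers, the 30 genes with the most reads, the 20 highest per kilobase, the 6 highest members of a list (all members of lists of up to 10), the 10 genes with the widest gap each way among means that reached 1000 scaled reads, and the 5 genes with no read in 1 pool and the most in the other, for each pool; other genes are said to be chosen after their values were seen. Genes enter the comparison of pools whose mean reached 10 scaled reads, as log2(value + 1). Sequence sharing is the percentage of a gene's 50-base words, over its annotated transcripts, that also occur in another gene's transcripts on either strand. It thus counts genes that overlap as well as similar copies. The length of 50 bases was a choice, since the read length is not known. Intervals (Wilson, 95%) and floors (3 reads) cover counting error only, since amplified reads without molecular identifiers are not independent molecules. The detection, share and ratio steps were tested on simulated data. Python 3.11.15, pandas 2.3.3, numpy 2.4.6, scipy 1.17.1 and matplotlib 3.10.9 were used. Alternatives were other denominators, lengths, read minimums, pseudocounts, scalings and fold limits, and each pool alone.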

Additional observations from a re-analysis of the deposited data

How the results depend on the processing

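No paired analysis was possible because there is 1 group and no result comes from a test. From one pool alone to the other, the share of reads ran from 12.4% to 15.5% for maternal, 1.97% to 2.35% for 2-cell, 8.12% to 10.9% for mitochondrial and 2.67% to 3.54% for translation genes, the detected genes from 15929 to 16446 and the share of the first 10 genes from 12.6% to 16.5%; agreement needs both pools and has no such value. Without the 10 most abundant genes the mean share was 9.40% for maternal (14.0% with them) and 2.53% for 2-cell genes (2.16%). It was 2.32% for mitochondrial genes (9.51%) and 3.62% for translation genes (3.11%), so the mitochondrial class was then the lowest. Per kilobase of merged exons the shares were 18.5% for maternal, 2.95% for 2-cell and 19.5% for mitochondrial genes. With the lengths of basic transcripts, chosen after seeing the data, maternal genes held 17.9%, mitochondrial genes 13.2% and translation genes 4.21% (3.11% by reads). The first 10 genes held 14.6% of reads, 11.1% without mitochondrial genes, 25.7% per kilobase and 21.8% with basic lengths. Detected genes kept within 1.5 times with read minimums up to 10 and at equal depth. With at least 100 reads required, 8721 and 7754 genes remained in pool 1 and pool 2, and with at least 1000 reads, 2993 and 2401. Pearson's r was 0.739, and 0.606 with a pseudocount of 0.1, 0.865 with 10, 0.778 with no filter, 0.825 and 0.879 with means of at least 100 and 1000, and 0.902 in RPM. The percentage of genes 2-fold apart, 43.8%, was 39.9% with a pseudocount of 10, 47.5% with no filter, 28.0% and 13.4% with means of at least 100 and 1000, and 34.1% in RPM. It was 62.7% for a 1.5-fold and 23.4% for a 4-fold limit. Scaled by the median ratio of the 2 pools, Pearson's r was 0.741 and 43.6% of genes were 2-fold apart. In RPM the added 1 stands for more reads than in scaled reads, so the RPM values differ in pseudocount as well as in scaling. Adding the nuclear copies on chromosome 1, chosen after seeing the data, gave a mitochondrial share of 9.56%. That sum takes in only reads counted for a copy, so it cannot show how many reads with several matches the class may lack. Of 273 shares of single lists and genes under other denominators and lengths, 127 stayed within 1 SD of the pools and 146 moved. Counting error alone gives a median size of the log2 ratio between pools, without its sign, of 0.44 at means of 10 to 30 scaled reads. At 30 to 100 it gives 0.25.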
